A study of Mus musculus with 10 samples.

Results

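Constitutive mast cells of the mouse lower airway, sorted as the B7low population, were compared after intranasal house dust mite extract (HDM) and after saline. The comparison used 5 of the 10 libraries in the series, 3 with HDM and 2 with saline, chosen by the population and the challenge given in each sample's title. The other 5 libraries hold the B7hi population, also 3 with HDM and 2 with saline, and entered the model for its estimate of the spread. All animals were wild-type C57BL/6 mice of 5 to 7 weeks with no transgene or deletion, anesthetized with inhaled isoflurane. Each dose was 20 µL of saline, alone or with 3 µg of HDM extract, given 2 times a week for 3 weeks. As these names are used in the literature, B7 stands for integrin β7, and constitutive mast cells are the β7-low cells resident in the airway wall before any challenge. The labels do not say whether replicate libraries came from separate animals or from pools. Each p-value is therefore set against the spread from library to library, part of which may be technical.

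Mast cells are granule-filled cells of barrier tissues that carry the high-affinity IgE receptor and depend on the stem cell factor receptor Kit. Connective tissue mast cells store chymases, tryptases, carboxypeptidase and heparin, and on activation they release these stores, make eicosanoids and secrete cytokines. HDM extract holds proteases and microbial products as well as allergens, and it is widely used to elicit type 2 inflammation in the mouse airway.

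The 5 libraries carried mast cell transcripts at high levels. The carboxypeptidase Cpa3 was at 26631 and 14645 CPM (read counts scaled to library size) with saline and at 19072, 14350 and 12430 CPM with HDM. Kit stood at 5642 and 5057 CPM with saline and at 4537, 3830 and 4867 CPM with HDM. The transcript of the β7 chain itself, Itgb7, was at 603 and 570 CPM with saline and 550, 731 and 919 CPM with HDM, against group means of 846 and 630 CPM in B7hi cells. The B7hi libraries were at 681 and 1011 CPM with saline, above both B7low saline libraries, and at 861, 341 and 688 CPM with HDM. Itgb7 mRNA thus overlapped with HDM but not with saline between the sorted populations, which were separated by surface protein.

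Depth differed between the groups compared. The saline libraries held 652736 and 639906 counts, and the HDM libraries 771519, 1501225 and 1572427. A count of 0 allowed a level of up to 4.60 and 4.69 CPM in the saline libraries and of 3.89, 2.00 and 1.91 CPM in the HDM libraries (3 counts over the library's total, counting error only). B7low saline 2 stood apart, with the noncoding RNA Kcnq1ot1 at 6956 CPM against 2794 CPM in the other saline library and 1955 to 2535 CPM with HDM. Malat1, another noncoding RNA, was at 5646 and 6137 CPM with saline and 4564, 3507 and 4167 CPM with HDM. The ribosomal RNA gene Rn45s held 27.2% and 28.9% of counts with saline and 24.1%, 21.9% and 24.9% with HDM. For all 3 RNAs both saline libraries were above every HDM library, and the cause was not tested. The 2 saline libraries correlated at r = 0.771 across genes and pairs of HDM libraries at 0.856 to 0.887 (log2 CPM; genes are not independent replicates). Two-sided exact permutation of 2 against 3 libraries cannot give a p below 0.2, so every test below is edgeR's quasi-likelihood test over all genes, with a threshold of 0.05 after adjustment.

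Of 10533 genes tested, 1 was higher with HDM in B7low cells, 0.00949% of those tested, and 0 were lower. The gene was Il6, which encodes interleukin-6, a cytokine of acute inflammation. At an unadjusted p under 0.05, 644 genes (6.11%) were higher and 312 (2.96%) were lower. Libraries of the 2 groups did not overlap for 1390 genes higher with HDM, 13.2% of those tested, and for 1124 lower (10.7%). Random assignment of the 5 libraries to groups of 2 and 3 would set ranges apart, in either direction, with a probability of 0.2 for a gene without ties. With fewer libraries more ranges lie apart, and the numbers were 2104 and 1694 without B7low HDM 1 and 3233 and 2839 without B7low saline 2. The median log2 fold change over all genes was 0.03. The adjusted p was under 0.2 for 22 genes, and all 22 were higher with HDM.

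**Figure D1:**
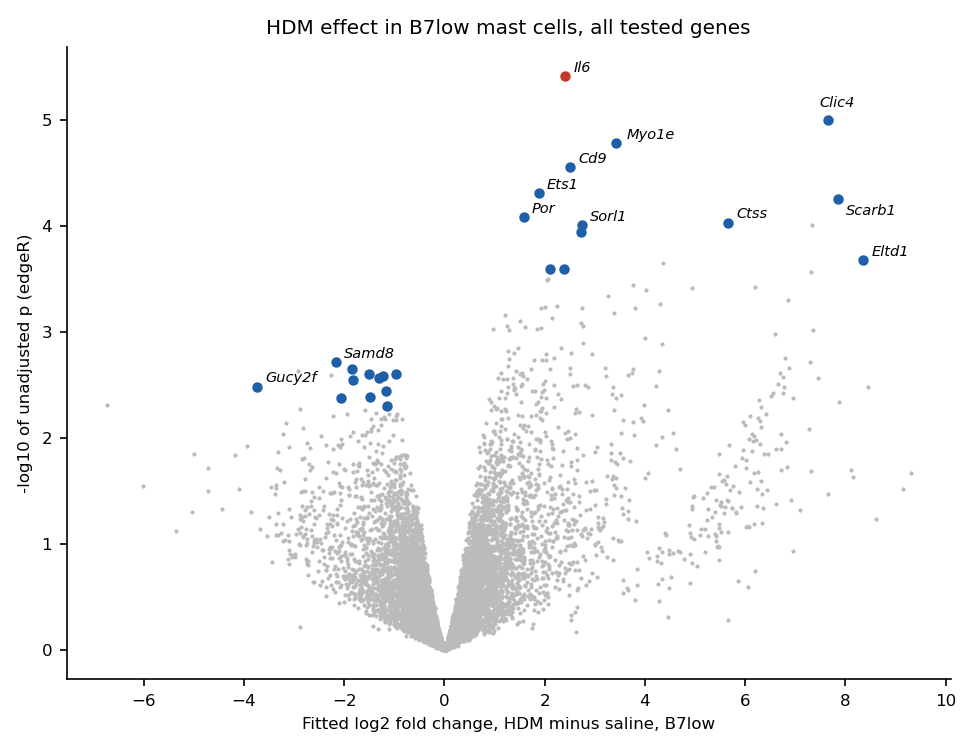
Fitted log2 fold change in B7low cells (x axis, HDM minus saline) against the −log10 of the unadjusted edgeR p (y axis) for the 10533 genes tested. Il6, in red, is the 1 gene past the adjusted threshold; blue points are the other genes named by the rule, and fitted values above about 6 belong to genes with 0 or few counts in the saline libraries, for which the text gives a bound or a counting interval instead.

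Il6 was at 47.2 and 65.2 CPM with saline and at 454, 213 and 233 CPM with HDM. The lowest HDM library was above both saline libraries, and B7low HDM 1 stood above the other HDM libraries. The means were 56.2 ± 12.7 CPM (SD, n = 2) and 300 ± 134 CPM (SD, n = 3). Il6 rose by 2.40 ± 0.36 on the log2 scale (SE; edgeR adjusted p = 0.041), a fitted 5.29-fold difference. The call was near its threshold. It was lost when any 1 of 8 of the 10 libraries was left out, with adjusted p from 0.051 without B7hi HDM 1 to 0.23 without B7low saline 2, and was kept without B7low HDM 2 or B7low HDM 3. Over all 21 other settings the log2 fold change stayed between 1.98 and 2.66. B7low HDM 1, the highest for Il6, also had the highest B cell and endothelial marker sums, given below. B7low HDM 2 was above B7low HDM 3 for both sums and below it for Il6. The part of other cells' RNA in Il6 was not tested.

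The promoter of Il6 is shown because this gene alone passed the test. Il6 lies on chromosome 5 of GRCm38 from 30013114 to 30019981, on the plus strand. The 250 bases before its start, chr5:30012864-30013113 (RefSeq, GRCm38.p6), read 5′ to 3′ as below, where capitals mark letters that match 1 of 4 motifs.
Il6: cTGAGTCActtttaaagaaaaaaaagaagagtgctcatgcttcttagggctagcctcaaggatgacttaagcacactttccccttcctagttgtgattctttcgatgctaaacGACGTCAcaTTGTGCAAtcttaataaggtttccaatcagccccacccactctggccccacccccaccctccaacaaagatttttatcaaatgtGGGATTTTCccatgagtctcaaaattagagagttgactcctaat
The AP-1 letters TGANTCA matched at position −249 from the start, the CRE letters TGACGTC at −137 on the minus strand, the C/EBP letters TTGNGCAA at −128 and the NF-kB letters GGGNNTTTC at −44. Both strands were searched, and no match overlapped another. The motif letters were written with this window in view. Of 32851 promoter windows of the same length, 6.75% held the AP-1 letters, 3.72% the NF-kB letters, 2.78% the CRE letters and 2.61% the C/EBP letters. A match is a description of the sequence and shows no binding.

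In B7hi cells Il6 was at 182 and 184 CPM with saline and at 408, 380 and 467 CPM with HDM. B7low cells with saline were thus the lowest of the 4 groups, and B7hi groups did not overlap either. The log2 fold change in B7hi was 1.19 (edgeR adjusted p = 0.36). The difference between the fold changes, B7low minus B7hi, was 1.21 (adjusted p = 0.50), so a larger response in B7low was not shown.

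The 12 genes next in order of p among those higher with HDM did not pass the test, with edgeR adjusted p from 0.053 to 0.18. Each had at least 20 CPM on average with HDM, and every HDM library was above both saline libraries, a condition of the naming rule that 13.2% of all genes met. None had a change of sign in any of the 21 other settings, but that condition largely fixes the sign when libraries are left out. The 12 genes are given as values.

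Clic4, a chloride intracellular channel protein, had 0 counts in both saline libraries and 21.7, 22.8 and 19.0 CPM with HDM, at least 8.19-fold higher (3 counts over the saline group; adjusted p = 0.053). Scarb1, the receptor for high-density lipoprotein, had 0 counts in both saline libraries and 23.04, 26.7 and 22.7 CPM with HDM, at least 9.50-fold higher (adjusted p = 0.098). For both genes the 3 HDM libraries lay close together, and neither call was reached. In B7hi cells with saline, Clic4 stood at a mean of 30.4 and Scarb1 at 29.9 CPM, so the B7low saline libraries were the low group among the 4. Eltd1, an adhesion receptor of endothelial cells and a member of the endothelial marker list, was at 0 with saline and at 55.6, 8.46 and 41.7 CPM with HDM, at least 12.1-fold higher (adjusted p = 0.18). Its B7hi means were 26.3 CPM with saline and 23.4 CPM with HDM.

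Genes of movement and adhesion stood among the 12. Myo1e, a class I myosin at the cell edge, was at 6.99 and 1.67 CPM with saline and 59.6, 48.1 and 35.4 CPM with HDM (log2 fold change 3.43 ± 0.57, adjusted p = 0.059). Cd9, a tetraspanin, was at 17.5 and 31.8 CPM with saline and 182, 80.7 and 161 CPM with HDM (2.50 ± 0.43, adjusted p = 0.074). Its lowest HDM library was still above both saline libraries. In B7hi cells Cd9 was at a mean of 357 CPM with saline and 202 CPM with HDM, and the difference between the populations' fold changes was 3.32 (adjusted p = 0.054). Cdh1, which encodes E-cadherin, was at 10.5 and 18.4 CPM with saline and 84.0, 45.5 and 61.9 CPM with HDM (2.11, adjusted p = 0.18). Its B7hi means were 151 CPM with saline and 103 CPM with HDM.

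Among signalling and sorting genes, the transcription factor Ets1 was at 33.2 and 48.5 CPM with saline and 173, 109 and 172 CPM with HDM (log2 fold change 1.88 ± 0.35, adjusted p = 0.098). Sorl1, a sorting receptor of endosomes, was at 5.25 and 6.69 CPM with saline and 39.3, 39.0 and 43.6 CPM with HDM (2.75 ± 0.54, adjusted p = 0.10). Sh2d3c, an SH2-domain adaptor, was at 5.25 and 5.02 CPM with saline and 35.2, 36.4 and 31.6 CPM with HDM (2.72, adjusted p = 0.11). Both Sorl1 and Sh2d3c had tightly grouped libraries on each side, at low counts in saline. Rcsd1, a regulator of actin capping, was at 5.25 and 13.4 CPM with saline and 70.5, 41.6 and 39.8 CPM with HDM (2.39, adjusted p = 0.18).

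Por, the electron donor of cytochrome P450 enzymes and of squalene monooxygenase, was at 40.2 and 41.8 CPM with saline and 110, 134 and 124 CPM with HDM (log2 fold change 1.58 ± 0.31, adjusted p = 0.10). It had the smallest fitted fold and the smallest SE of the 12. Ctss, the cathepsin S of antigen-presenting cells, had 1 count in the saline group and 172 with HDM, a ratio of 52.2 (95% counting interval 9.24 to 2072; adjusted p = 0.10). Its HDM libraries were uneven at 69.1, 63.7 and 14.5 CPM. Por, Ctss and Rcsd1 had nearly equal means with and without HDM in B7hi cells: 136 and 138 CPM, 19.0 and 19.5 CPM, and 74.8 and 74.9 CPM.

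**Figure D2:**
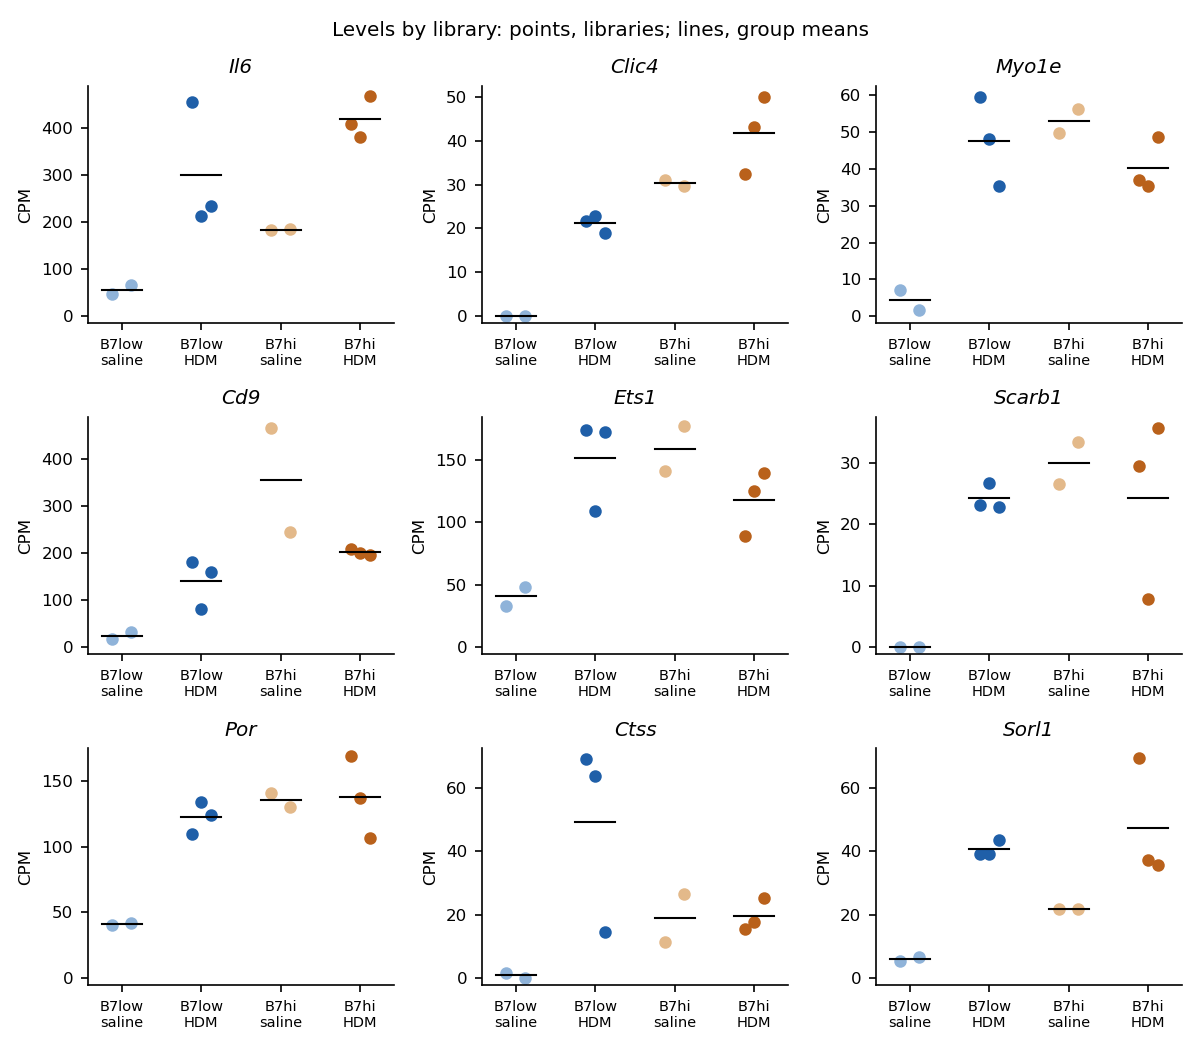
CPM in each library (points) with group means (lines) for Il6 and the 8 genes next in order of p. In each panel the 3 B7low HDM points lie above the 2 B7low saline points, and the 2 B7low saline libraries are the lowest of the 10.

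No gene passed in the downward direction, and the 12 genes named there had edgeR adjusted p from 0.31 to 0.35. Samd8, a ceramide phosphoethanolamine synthase, was at 35.0 and 31.8 CPM with saline and 5.42, 7.15 and 8.85 CPM with HDM (log2 fold change −2.17 ± 0.59, adjusted p = 0.31). Lats1, a kinase of the Hippo pathway, was at 64.7 and 50.2 CPM with saline and 6.78, 10.4 and 28.4 CPM with HDM (−1.85). Gfpt1, the first enzyme of hexosamine synthesis, was at 245 and 196 CPM with saline and 122, 110 and 105 CPM with HDM (−0.97). Of these, Gfpt1 had the highest level and the smallest difference. Gnai1, an inhibitory G protein α subunit, was at 108 and 36.8 CPM with saline and 23.04, 16.9 and 12.6 CPM with HDM (−2.07), and its B7hi means were 0.378 and 0.625 CPM. The other 8 were Elmod2 (−1.51), Otud4 (−1.23), Dusp18 (−1.31), Zfp160 (−1.82), Gucy2f (−3.74), Olfr1033 (−1.17), Mrpl50 (−1.49) and Gpr141 (−1.14).

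The mast cell program itself showed no call. Of the 20 tested core mast cell genes, 1 had HDM libraries all above saline and 2 all below, 5% and 10% beside 13.2% and 10.7% of all genes. In either direction 0 had an unadjusted p under 0.05, beside 6.11% and 2.96% of all genes. The number below saline was 6 (30%) without B7low HDM 1, beside 16.1% of all genes in that comparison. The high-affinity IgE receptor chain Fcer1a was at 2972 and 2445 CPM with saline and 2383, 3225 and 1917 CPM with HDM (log2 fold change −0.11, edgeR adjusted p = 0.95). Il1rl1, the interleukin-33 receptor, was at 2397 and 1975 CPM with saline and 1861, 1764 and 1678 CPM with HDM (−0.31, adjusted p = 0.76). For Il1rl1 the groups did not overlap but lay close. Hdc, the enzyme of histamine synthesis, was at 5515 and 3396 CPM with saline and 3900, 2496 and 2331 CPM with HDM (−0.62, adjusted p = 0.64), with groups that overlapped. Kit had a log2 fold change of −0.28 (adjusted p = 0.81).

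Connective tissue mast cell genes had fitted values of opposite sign in the 2 populations. All 11 tested members had a negative fitted log2 fold change in B7low and a positive one in B7hi, with medians of −0.41 and 1.52, beside 0.03 and 0.02 over all genes. Of these, 1 had B7low ranges apart and was lower with HDM (9.09% beside 10.7% of all genes), and 1 was lower at an unadjusted p under 0.05, beside 2.96% of all genes. The number with ranges apart downward was 7 (63.6%) without B7low HDM 1 and 11 without B7low saline 2, beside 16.1% and 27.0% of all genes in those comparisons. Without B7low saline 1 the B7low median was 0.16, so the direction of the list rests on that library. No gene of any list passed the test of the difference between populations. At an unadjusted p under 0.05, 5 of the 11 had a difference below 0 and 0 above, against 3.76% and 4.79% of all genes tested.

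Adora3, the adenosine A3 receptor, was the member with B7low groups apart, at 350 and 279 CPM with saline and 229, 206 and 174 CPM with HDM (log2 fold change −0.63 ± 0.27, edgeR adjusted p = 0.51). In B7hi its means were 33.0 CPM with saline and 91.4 CPM with HDM (1.48), and the difference of −2.11 did not pass (adjusted p = 0.15). Cma1, a chymase, was at 34315 and 17227 CPM with saline and 23323, 21480 and 16088 CPM with HDM (−0.34, adjusted p = 0.77), where the 2 saline libraries bracketed most of the HDM range. Its B7hi means were 1766 and 5074 CPM (1.52), with a difference of −1.87 (adjusted p = 0.22). Mcpt4, another chymase, had −0.45 in B7low and 0.55 in B7hi, the tryptase Tpsb2 −0.41 and 2.24, and Mrgprb2, the receptor for basic secretagogues, −0.44 and 1.40. Short reads may be shared between near-identical proteases and between Mrgpr genes, so single members are uncertain. The cathepsin G gene Ctsg had −0.82 and 0.02.

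Mucosal proteases varied more between replicates than between groups. Mcpt1 was at 1.75 and 3550 CPM with saline and 8.13, 4826 and 587 CPM with HDM, and Mcpt2 at 126 and 3395 CPM with saline and 1111, 6856 and 1932 CPM with HDM (edgeR adjusted p above 0.90 for Mcpt1 and 0.90 for Mcpt2). The libraries low for Mcpt1 were also the lowest of their groups for Mcpt2, in both groups. Itgae, an integrin chain of mucosal mast cells, was at 0 and 10.03 CPM with saline and 9.49, 21.5 and 0 CPM with HDM. Gzmb, granzyme B, was at 930 and 2194 CPM with saline and 877, 2966 and 5665 CPM with HDM (adjusted p = 0.67). Of the 7 tested members of the mucosal list, 0 had ranges apart upward and 1 downward (14.3%), beside 13.2% and 10.7% of all genes. Without B7low HDM 1 the number upward was 3 (42.9%), beside 20.0% of all genes, and the list's median of 0.91 became −0.24 without B7low HDM 2. Among histamine and serotonin genes, 1 of 10 had ranges apart in each direction, 10% beside 13.2% upward and 10.7% downward, with a median of −0.33. These were 3 upward and 4 downward without B7low HDM 1, 30% and 40% beside 20.0% and 16.1% of all genes in that comparison.

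**Figure D3:**
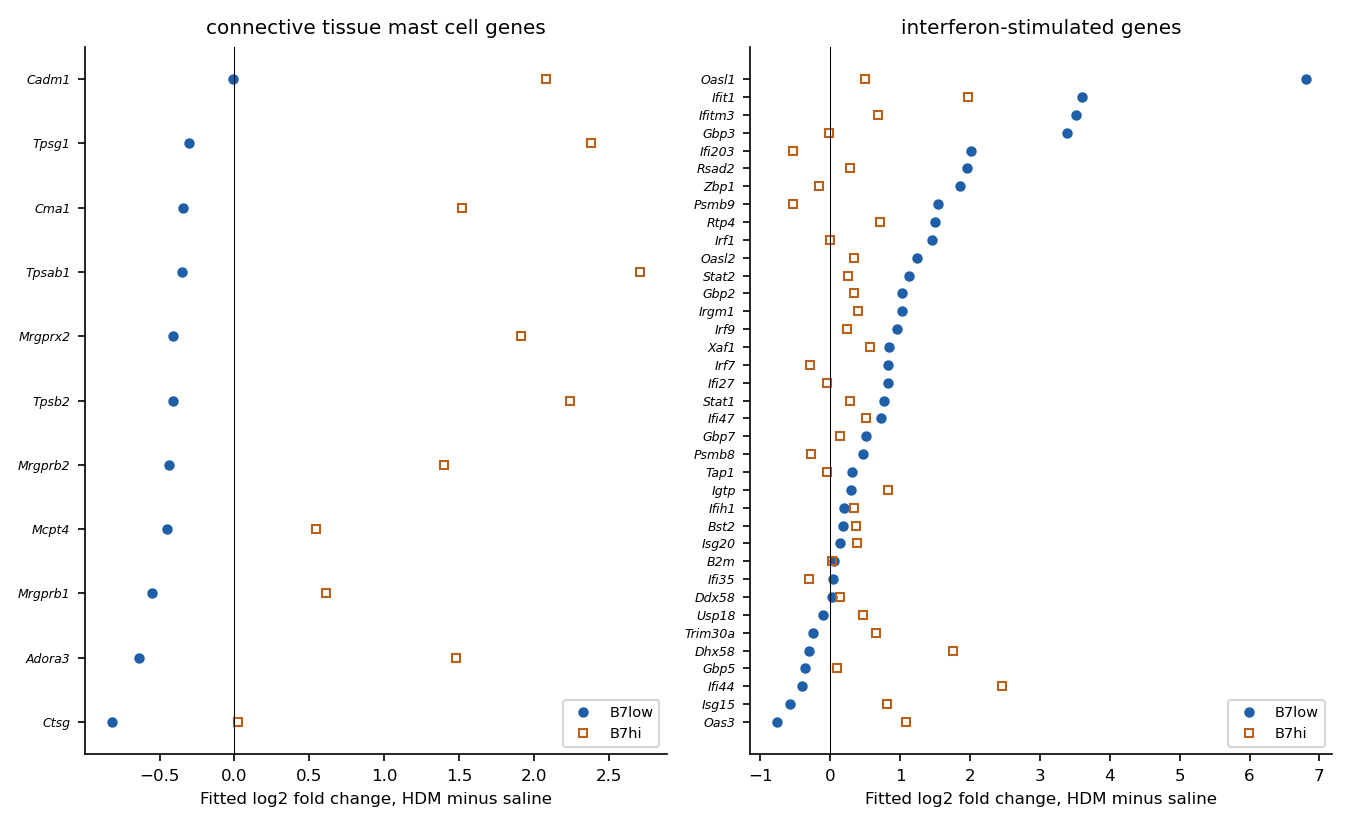
Fitted log2 fold change, HDM minus saline, in B7low (filled circles) and B7hi (open squares) for each tested member of the connective tissue mast cell list (left) and the interferon-stimulated list (right). All 11 connective tissue genes are below 0 in B7low and above 0 in B7hi, and 30 of 37 interferon-stimulated genes are above 0 in B7low. Of all 10533 genes tested, 5476 are above 0 in B7low and 5432 in B7hi.

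Cytokine genes held the 1 call. Of 27 cytokine and growth factor genes, 18 passed the count filter, and 10 of these had HDM ranges above saline and 1 below, 55.6% and 5.56% beside 13.2% and 10.7% of all genes. The median log2 fold change was 0.91 in B7low and 0.26 in B7hi, and the B7low median stayed between 0.75 and 1.05 in every other setting. Besides Il6, Osm, oncostatin M, was at 266 and 395 CPM with saline and 684, 611 and 655 CPM with HDM (0.98 ± 0.39, edgeR adjusted p = 0.49). Lif, leukemia inhibitory factor, of the same cytokine family, was at 54.2 and 53.5 CPM with saline and 78.6, 103 and 112 CPM with HDM (0.87 ± 0.33, adjusted p = 0.45). Groups did not overlap for either gene, and both had positive log2 fold changes in B7hi too (1.24 and 1.86). Il6, Lif and Osm had the 3 lowest p-values of the list, and all signal through the receptor chain gp130.

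Other mast cell cytokines, among them those of type 2 responses, did not pass the test. Il13 was at 5.25 and 10.03 CPM with saline and 14.9, 15.0 and 14.5 CPM with HDM (log2 fold change 0.94, edgeR adjusted p = 0.71). Il4 was at 164 and 105 CPM with saline and 179, 107 and 173 CPM with HDM (0.18, adjusted p = 0.90). Tnf was at 379 and 283 CPM with saline and 474, 399 and 399 CPM with HDM (0.36, adjusted p = 0.80). The Il4 groups overlapped, and those of Il13 and Tnf did not, by a narrow margin. Areg, amphiregulin, had 0 counts with saline and 4.07, 0.65 and 6.95 CPM with HDM, at least 1.52-fold higher. Il4 and Tnf were chosen after their values were seen.

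Of 22 chemokine genes, 10 were tested and 3 had HDM ranges above saline, 30% beside 13.2% of all genes. Ccl4 was at 390 and 363 CPM with saline and 1606, 455 and 1163 CPM with HDM (log2 fold change 1.51 ± 0.48, edgeR adjusted p = 0.39). Ccl3 was at 83.9 and 129 CPM with saline and 821, 170 and 581 CPM with HDM (2.29 ± 0.86, adjusted p = 0.50). Both encode inflammatory chemokines and had the same order over the HDM libraries, with B7low HDM 2 the lowest and close to saline. The median of the 10 was 1.90, and it was 1.05 without B7low HDM 1 and 2.27 without B7low HDM 2. With 2 genes at 0 counts in saline set at their bound or at 0, it was 0.80. The value 0 was used where no bound could be given, as for the chemokine gene Cxcl10.

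Ptgs2, the inducible cyclooxygenase of prostaglandin synthesis, was at 6.99 and 31.8 CPM with saline and 428, 75.4 and 142 CPM with HDM (log2 fold change 3.43 ± 0.89, edgeR adjusted p = 0.33). Over the 21 other settings its log2 fold change lay between 2.47 and 4.90. Ltb4r1, the leukotriene B4 receptor, was at 3.50 and 3.34 CPM with saline and 5.42, 24.7 and 30.3 CPM with HDM (2.61, adjusted p = 0.36). The library highest for Ptgs2, B7low HDM 1, was the lowest of the HDM libraries for Ltb4r1. Of the 14 tested eicosanoid genes 2 had ranges apart upward and 1 downward, 14.3% and 7.14% beside 13.2% and 10.7% of all genes, with a median of 0.33. Upward, the number was 4 (28.6%) without B7low HDM 1, beside 20.0% of all genes. Il18rap, a chain of the interleukin-18 receptor, was at 5.25 and 1.67 CPM with saline and 157, 30.6 and 27.2 CPM with HDM (4.30 ± 0.97, adjusted p = 0.21), and its log2 fold change was 3.04 without B7low HDM 1.

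Interferon-stimulated genes had 18 of 37 tested members with HDM ranges above saline and 0 below, 48.6% beside 13.2% of all genes. At an unadjusted p under 0.05, 12 were higher and 0 lower, beside 6.11% and 2.96% of all genes. After adjustment 0 passed. The median log2 fold change was 0.78 in B7low and 0.34 in B7hi. In B7hi, 3 of the 37 had ranges apart upward, beside 10.2% of all genes. The B7low median was 0.49 without B7low HDM 2 and 0.47 without B7low HDM 1 and 2 together. In the fit without B7low HDM 2, 8 were higher and 1 lower at an unadjusted edgeR p under 0.05, beside 522 and 275 of 10533 genes.

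Rsad2, the antiviral enzyme viperin, was at 15.7 and 10.03 CPM with saline and 50.2, 52.7 and 47.4 CPM with HDM (log2 fold change 1.95 ± 0.58, edgeR adjusted p = 0.32). Ifi203, a nucleic acid sensor family member, was at 13.99 and 6.69 CPM with saline and 40.7, 38.4 and 46.8 CPM with HDM (2.02 ± 0.54, adjusted p = 0.31). Psmb9, an immunoproteasome subunit, was at 12.2 and 18.4 CPM with saline and 35.2, 54.0 and 44.9 CPM with HDM (1.55 ± 0.43, adjusted p = 0.31). The HDM libraries lay close together for all 3 genes, and their groups did not overlap. The log2 fold changes of Rsad2, Ifi203 and Psmb9 without B7low HDM 1 and 2 together were 1.87, 2.17 and 1.54. Oasl1, of the oligoadenylate synthetase family, had 0 counts with saline and 5.42, 8.46 and 20.2 CPM with HDM, at least 4.95-fold higher. Irf1, a transcription factor induced by interferons, was at 69.9 and 60.2 CPM with saline and 168, 205 and 164 CPM with HDM (1.46, adjusted p = 0.43), while Isg15, the ubiquitin-like modifier, was at 22.7 and 26.8 CPM with saline and 17.6, 22.8 and 9.48 CPM with HDM (−0.58). Irf1 and Isg15 were chosen after their values were seen.

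MHC class II and costimulation genes had the highest list median in B7low, 2.26 over 10 tested of 15 listed, against −0.43 in B7hi. Of the 10, 5 had HDM ranges above saline, 50% beside 13.2% of all genes, and 0 below, and 0 passed the test. H2-DMa, a peptide-loading chaperone, was at 5.25 and 11.7 CPM with saline and 40.7, 48.1 and 28.4 CPM with HDM (log2 fold change 2.18 ± 0.59, edgeR adjusted p = 0.31). H2-Ob, which modulates that chaperone in B cells, was at 12.2 and 11.7 CPM with saline and 106, 57.9 and 22.7 CPM with HDM (2.33, adjusted p = 0.31). H2-Aa, a class II α chain, was at 1.75 and 18.4 CPM with saline and 313, 292 and 24.0 CPM with HDM (4.34 ± 2.40, adjusted p = 0.64). B7low HDM 3 was close to the higher saline library for H2-Aa, and the other HDM libraries were far above. Without B7low HDM 1 and 2 together the median of the list was 0.88, and H2-Ob had a log2 fold change of 0.92.

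The same 2 libraries held most counts of B cell markers. The 8 markers of that list, each with a count in B7low, summed to 19.2 and 60.2 CPM with saline and to 644, 418 and 85.3 CPM with HDM. Ms4a1, which encodes CD20, had 1 count in the saline group and 250 with HDM, a ratio of 75.8 (95% counting interval 13.5 to 3006), and was at 100, 77.4 and 36.0 CPM with HDM. Cd79a was at 5.25 and 10.03 CPM with saline and 149, 68.9 and 8.85 CPM with HDM. B7low HDM 3 was thus at the saline level for Cd79a and above it for Ms4a1. Pax5 and Blk had 0 counts in both saline libraries. B cell and H2-Aa values were highest in the same 2 libraries, and the part of B cell RNA in the class II and Ctss values was not tested. The dendritic cell list summed to 19.2 and 107 CPM with saline and 938, 814 and 83.4 CPM with HDM, but H2-Aa, H2-Ab1 and Ccr7 made up most of that sum with HDM. Its other 10 members summed to 1.75 and 35.1 CPM with saline and 35.2, 18.9 and 15.8 CPM with HDM, and those groups overlapped. In bulk samples, more cells of a type and more RNA per cell cannot be told apart.

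Of B cell genes in other lists, Siglecg, an inhibitory receptor of B1 cells, had 0 counts with saline and 25.8, 13.01 and 11.4 CPM with HDM, at least 5.76-fold higher. Fcer2a, the low-affinity IgE receptor CD23, was at 3.50 and 5.02 CPM with saline and 39.3, 31.2 and 6.32 CPM with HDM (log2 fold change 2.53). Its log2 fold change was 0.56 without B7low HDM 1 and 2 together. The costimulatory marker Cd83 was at 3.50 and 3.34 CPM with saline and 232, 163 and 17.7 CPM with HDM. All 3 genes were highest in B7low HDM 1.

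Endothelial markers were uneven in another way. The 13 genes summed to 59.4 and 177 CPM with saline and to 714, 202 and 142 CPM with HDM, and 8 of them, including Cldn5, Tek, Vwf and Eltd1, had 0 counts in both saline libraries. Pecam1 made up most of each sum but that of B7low HDM 1. It was at 59.4 and 156 CPM with saline and 171, 142 and 95.4 CPM with HDM, and at 108 to 150 CPM in the B7hi libraries. Cldn5 was at 165, 18.9 and 2.53 CPM with HDM and Tek at 54.2, 11.7 and 0 CPM. The high sum was thus 1 library, B7low HDM 1, while Eltd1 was also high in B7low HDM 3. Epithelial markers summed to 31.5 and 56.9 CPM with saline and 107, 65.0 and 164 CPM with HDM, and Cdh1 is itself a member. Without Cdh1 the sums were 20.98 and 38.5 CPM with saline and 23.04, 19.5 and 102 CPM with HDM, which overlapped. The high value of B7low HDM 3 came mostly from the lung surfactant gene Sftpc (39.8 CPM), the club cell gene Scgb1a1 (17.7 CPM) and the surfactant gene Sftpa1 (12.6 CPM). Epcam was at 0 in saline and at 2.71, 0 and 0 CPM with HDM, and Krt8 at 0 in saline and at 0, 1.30 and 0.63 CPM with HDM. In the B7hi libraries Eltd1 was at 15.0 to 35.2 CPM, where Cldn5 was at 0 to 4.79 CPM and Tek at 0 to 0.76 CPM. The part of endothelial RNA in Eltd1 was not tested.

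Fibroblast markers summed to 97.9 and 83.6 CPM with saline and 104, 124 and 176 CPM with HDM, nearly all of it Gsn, the actin-severing protein gelsolin, which is not limited to fibroblasts. Gsn was at 92.7 and 78.6 CPM with saline and 102, 113 and 159 CPM with HDM, and the other 9 members summed to 5.25 and 5.02 CPM with saline and 2.71, 11.1 and 16.4 CPM with HDM, which overlapped. The sums of the T cell, NK cell, eosinophil and innate lymphoid lists overlapped between the groups as well. T cell markers summed to 12.2 and 43.5 CPM with saline and 20.3, 25.4 and 13.3 CPM with HDM, and NK cell markers to 17.5 and 40.1 CPM with saline and 9.49, 33.8 and 21.5 CPM with HDM. Eosinophil markers summed to 56.0 and 122 CPM with saline and 100, 29.9 and 53.1 CPM with HDM, with Epx, Prg2, Ear1 and Ear6 at 0 counts in all 5 libraries. Neutrophil markers summed to 19.2 and 68.6 CPM with saline and 58.3, 24.1 and 9.48 CPM with HDM. S100a8, Camp and Elane were at 0 counts in all 5 libraries, and the other 7 had a count. Alveolar macrophage markers summed to 17.5 and 10.03 CPM with saline and 9.49, 11.7 and 15.2 CPM with HDM. Ear1, Fabp4 and Plet1 were at 0, and the other 7 had a count. Monocyte and interstitial macrophage markers summed to 339 and 564 CPM with saline and 390, 403 and 574 CPM with HDM, mostly Cx3cr1. C1qa, C1qb and Fcgr1 were at 0, and the other 10 had a count. Each of these sums overlapped between the groups. Group 2 innate lymphoid cell markers summed to 173 and 114 CPM with saline and to 121, 86.5 and 258 CPM with HDM.

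**Figure D4:**
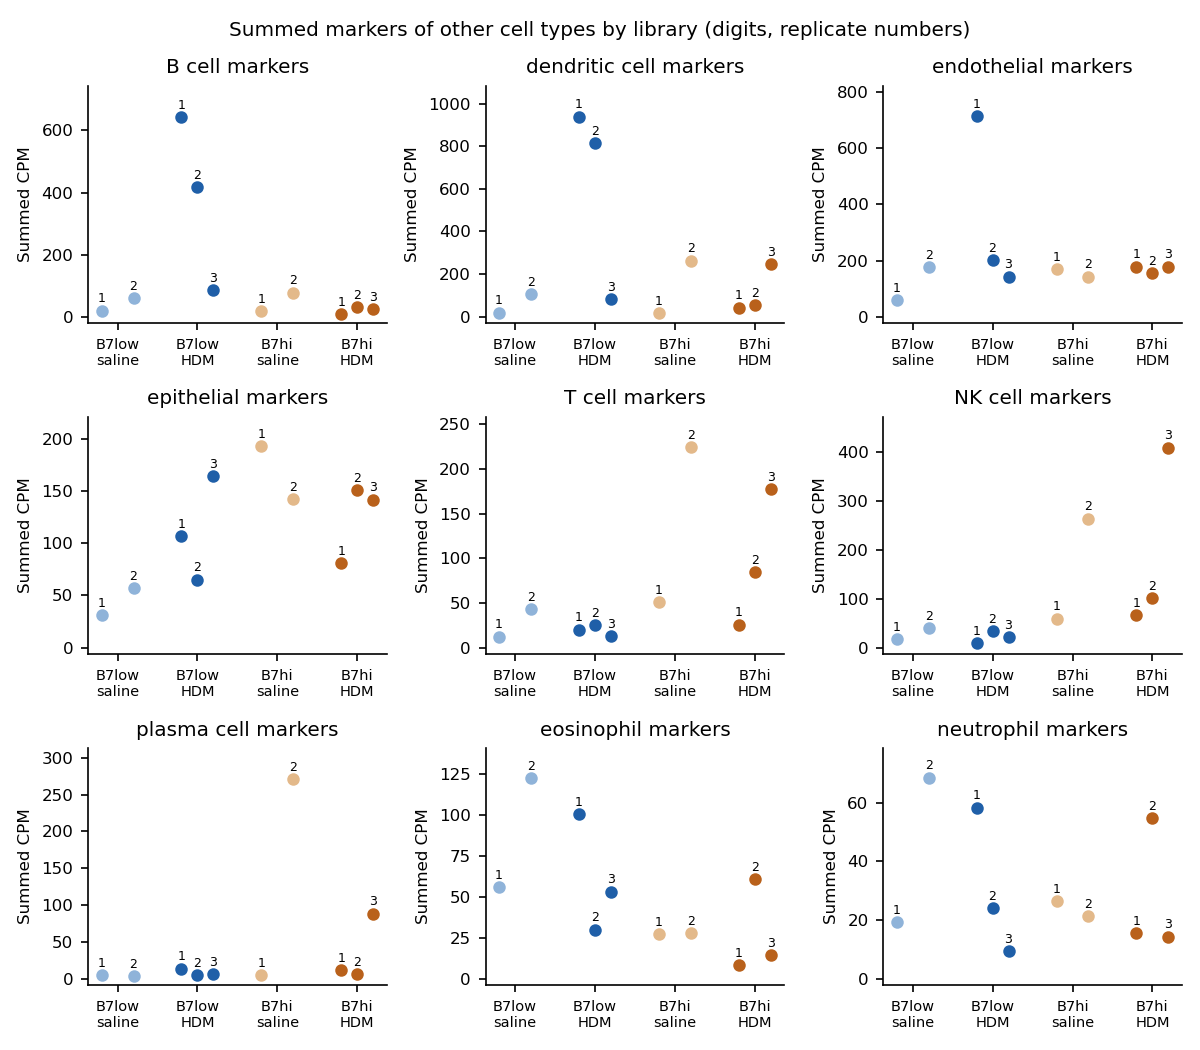
Summed CPM of marker genes of 9 other cell types in each library, with the replicate number above each point. B cell sums are highest in B7low HDM 1 and 2, at 644 and 418 CPM, and the endothelial sum in B7low HDM 1, at 714 CPM. The dendritic cell sum with HDM is mostly H2-Aa, H2-Ab1 and Ccr7, the epithelial sum includes Cdh1, and the endothelial sum includes Pecam1.

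Adhesion and chemotaxis receptors had 10 of 38 tested members with HDM ranges above saline and 1 below. These were 26.3% and 2.63%, beside 13.2% and 10.7% of all genes. Their median log2 fold change was 0.43 in B7low and −0.40 in B7hi. Itgal, the α chain of LFA-1, was at 1.75 and 20.1 CPM with saline and 52.9, 32.5 and 45.5 CPM with HDM (1.96 ± 0.57, edgeR adjusted p = 0.31). Its groups did not overlap, and the saline libraries differed widely. Itgal is also expressed by lymphocytes. S1pr2, a sphingosine-1-phosphate receptor, was at 20.98 and 6.69 CPM with saline and 20.3, 48.1 and 48.0 CPM with HDM (1.52, adjusted p = 0.43), with groups that overlapped.

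Lipid genes gave 24 positive log2 fold changes of 28 tested members of the cholesterol list, beside 5476 of all 10533 genes. Their median was 0.53 in B7low and 0.17 in B7hi. At an unadjusted p under 0.05, 8 were higher and 0 lower, beside 6.11% and 2.96% of all genes, while ranges were apart for 3, all upward, 10.7% beside 13.2% of all genes. Without B7low HDM 1 ranges were apart upward for 12 (42.9%), beside 20.0% of all genes in that comparison. In B7hi, 17 of the 28 were positive. Ranges there were apart upward for 7 and downward for 3 of the 28, beside 10.2% and 10.4% of all genes. Insig2, which retains the sterol sensor in the endoplasmic reticulum, was at 1.75 and 5.02 CPM with saline and 24.4, 22.1 and 24.0 CPM with HDM (2.75 ± 0.65, edgeR adjusted p = 0.21). Abcg1, a sterol exporter, was at 40.2 and 53.5 CPM with saline and 73.2, 111 and 147 CPM with HDM (1.25, adjusted p = 0.31). Scap, the sterol-sensing escort of SREBP, was at 6.99 and 11.7 CPM with saline and 23.04, 24.1 and 58.8 CPM with HDM (1.92, adjusted p = 0.33). Each of Insig2, Abcg1 and Scap had groups that did not overlap. The list's median was 0.17 without B7low HDM 2.

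Cell cycle genes had 40 of 47 tested members above 0, beside 5476 of all 10533 genes, with a median of 0.65. Ranges were apart for 3, all upward, 6.38% beside 13.2% of all genes. Without B7low HDM 1 the number was 20 (42.6%), beside 20.0% of all genes, and without B7low saline 2 it was 13 (27.7%), beside 30.7% of all genes. Mki67, a nuclear protein of dividing cells, was at 15.7 and 36.8 CPM with saline and 36.6, 41.0 and 46.8 CPM with HDM (log2 fold change 0.66, edgeR adjusted p = 0.78). Cenpa, a centromeric histone, was at 6.99 and 6.69 CPM with saline and 14.9, 33.2 and 27.8 CPM with HDM (1.90, adjusted p = 0.42). The list median ranged from 0.20 without B7low HDM 2 to 1.29 without B7low saline 2 and B7hi HDM 2. MHC class I presentation genes had a median of 0.44, with 5 of 19 ranges apart upward, 26.3% beside 13.2% of all genes, and 0 downward. The number upward was 9 (47.4%) without B7low HDM 1, beside 20.0% of all genes, and the median was 0.15 without B7low HDM 2. H2-K1 was at 502 and 642 CPM with saline and 754, 983 and 712 CPM with HDM (0.51, adjusted p = 0.56).

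Immediate early and stress genes, which tissue dissociation can induce, had a median of −0.11, with 5 of 32 ranges apart upward and 3 downward, 15.6% and 9.38% beside 13.2% and 10.7% of all genes. Downward, the number was 10 (31.2%) without B7low HDM 1, beside 16.1% of all genes. Ier3 was at 472 and 652 CPM with saline and 915, 946 and 808 CPM with HDM (log2 fold change 0.66, edgeR adjusted p = 0.46). Dusp2, a phosphatase of activated kinases, was at 26.2 and 56.9 CPM with saline and 165, 128 and 183 CPM with HDM (1.93, adjusted p = 0.44). Klf6 was at 2586 and 1100 CPM with saline and 1134, 853 and 993 CPM with HDM (−0.89, adjusted p = 0.44). The Ier3 and Dusp2 groups did not overlap, and those of Klf6 did. Medians of −0.08 to 0.12 were found for core mast cell, IgE receptor signalling, granule exocytosis, STAT response, NF-kB response and heparin synthesis genes. The sign of the median held in 18 of 21 other settings for the core list, in 13 for granule exocytosis and in all 21 for STAT response.

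**Figure D5:**
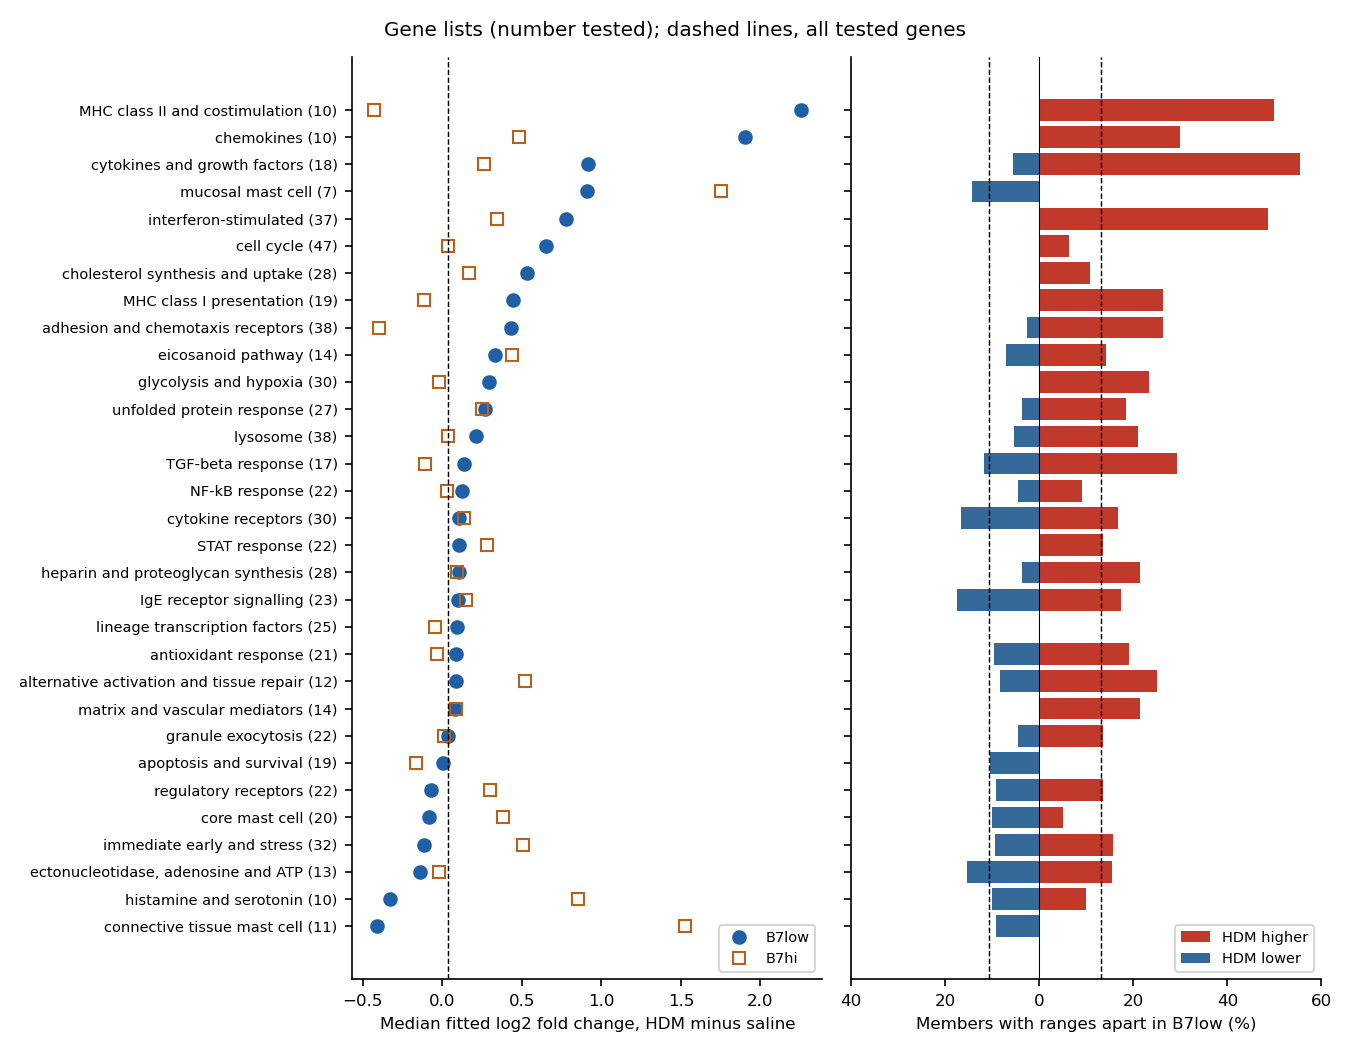
Left, median fitted log2 fold change of each of 31 gene lists in B7low (filled circles) and B7hi (open squares), with the number of tested members in parentheses. Right, percent of members with CPM ranges apart in B7low, higher with HDM to the right and lower to the left; dashed lines mark all tested genes (13.2% and 10.7%).

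The difference between the populations' responses passed the test for 0 of 10533 genes, with 901 at an unadjusted p under 0.05 and a lowest adjusted p of 0.054. DESeq2 called 44 genes there. In B7hi cells 1 gene was higher with HDM and 0 were lower, and 2.77% and 1.36% of genes were higher and lower at an unadjusted p under 0.05. The called gene was Ecm1, which was chosen for naming after its values were seen. Ecm1, an extracellular matrix protein gene, was at 215 and 107 CPM with saline and 145, 126 and 106 CPM with HDM in B7low (log2 fold change −0.36), against 2.67 in B7hi (edgeR adjusted p = 0.026). Its difference of −3.03 between the populations did not pass (adjusted p = 0.054). No gene was called in B7hi without B7hi saline 1 or without B7low HDM 2. The B7low saline level of Ecm1 was above every B7hi library.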

How the data were processed

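Bulk RNA of flow-sorted mast cells was made into SmartSeq2 libraries from poly(A)+ mRNA and sequenced as paired reads of 25 nt, per the labels' protocols. The authors deposited a table of raw counts, whole numbers for 22815 gene symbols in 10 libraries. The build mm10 and the tools DESeq2, Cufflinks 2.2.1 and TopHat2 2.0.10 appear in the submitters' processing notes without roles. How reads were counted, on which annotation and whether by strand is not given in the sources used here, so overlapping, antisense and near-identical genes cannot be told apart.

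A robust quasi-likelihood model of edgeR 4.0.16 (R 4.3.3), with TMM scaling and 1 mean per group, was fitted over all 10 libraries. Its common biological coefficient of variation was 0.359. Of the symbols, 10533 passed filterByExpr. Tests were two-sided with Benjamini-Hochberg adjustment over these genes and a threshold of 0.05. Levels are CPM, read counts scaled to the TMM-adjusted library size, and the SE is approximate, taken as the absolute log2 fold change divided by the root of the F statistic. Ranges were apart when the groups' CPM values did not overlap. Against a group with 0 counts, folds are bounds at 3 counts over the group, and with 1 to 3 counts they are ratios with exact 95% counting intervals. B7low replicates differed by more than sampling noise (chi-square per degree of freedom 6.84 to 9.67).

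Genes named are those past 0.05 and then up to 12 per direction by p, with a mean of 20 CPM or more on the higher side, ranges apart and no predicted model; up to 4 members of each described list by p; and a fixed set. Ltc4s of that set did not pass the count filter, and some genes that the rule names are left out here. The comparison, members, lists and motifs were chosen with earlier results of these data known. Alternatives were DESeq2 1.42.0, limma-voom (limma 3.58.1), other scalings and filters, only the groups compared, a replicate block and left-out libraries. Coordinates are from GENCODE M21 on GRCm38 (mm10).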

Additional observations from a re-analysis of the deposited data

How the results depend on the processing

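The number of genes higher with HDM in B7low, 1 by edgeR, was 0 with DESeq2 size factors, limma-voom, only the groups compared or without B7low saline 2 and B7hi HDM 2 together. It was 2 with the replicate block, 3 with genes kept at 5 CPM or more in 2 libraries, 4 with library size alone, 19 with DESeq2 and 106 with no count filter, and 0 to 8 with 1 library left out, the highest without B7low saline 1. Without B7low HDM 1 and B7low HDM 2 together, an alternative chosen after seeing the data, it was 2, and Il6 was not among them. The number lower, 0, was 6 with no count filter and 0 to 1 with 1 library left out. Genes that differed in response between populations, 0, were 1 without B7low saline 2 and B7hi HDM 2 together, 2 with library size alone, 3 with at least 5 CPM in 2 libraries, 44 with DESeq2, 143 with no count filter and 0 to 3 with 1 library left out. Genes called in B7hi, 1, were 0 with only the groups compared or without B7low HDM 1 and B7low HDM 2 together, 5 without B7low saline 2 and B7hi HDM 2 together, 6 with the replicate block, 11 with limma-voom, 55 with DESeq2, 89 with no count filter and 0 to 11 with 1 library left out. The cause of these differences was not tested.

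Il6 kept its call with library size alone (edgeR adjusted p = 0.018), the replicate block (0.043), DESeq2 (2.4e-06) and 5 further settings, and lost it with DESeq2 size factors (0.055), only the groups compared (0.13) and limma-voom (0.33). Library size alone moved the median of all genes from 0.03 to 0.17. Of 152 named genes, 133 had a value in all 21 alternatives and 123 of these kept their sign in each, while 16 of the 19 with values in fewer alternatives kept theirs in those. The genes named by rule for ranges apart are among these, and that rule largely fixes their sign when libraries are left out. Of called genes, 0 reversed. Only replicate numbers 1 and 2 are shared between the groups, and the deviations of same-numbered libraries correlated at r = 0.054 and 0.014. With 2 saline libraries the deviations mirror each other, so these values cannot decide whether the numbers mark a shared batch. The labels do not say, and the main model used no pairing. Leaving out a B7low saline library leaves 1, assumed to vary like the other groups. The saline libraries' lower depth limits genes under about 5 CPM.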
